A study of Mus musculus with 2 samples.

Results

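The immediate early genes Fos, Fosb, Jun, Junb, Atf3, Egr1, Egr2, Nr4a1, Ier2 and Dusp1, 10 of the 20629 genes tested, were examined in mouse ureters whose labels give a deletion of Tbx2 and Tbx3. Each was identified by the RefSeq accession that the array gives for its probe. Each had 1 probe with 4 spots on each array, and all 10 probes were well above background in every spot of all 4 RNAs. Immediate early genes are switched on within minutes of a growth factor, stretch or other stress, before any new protein is made. Their RNAs and proteins are short-lived, so their level follows the recent signalling of a cell. MAP kinases act on serum response factor (SRF) and its ternary complex partners, and cyclic AMP and calcium signals act on CREB, and both routes meet at the promoters of these genes. SRF also drives the contractile genes of smooth muscle, the cell layer that forms in the ureter at this stage, there with the coactivator Myocd.

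The RNAs came from ureters of E14.5 mouse embryos of the NMRI strain. The ureters labelled knockout carried 1 Tbx18 allele with Cre recombinase and floxed alleles of both Tbx2 and Tbx3, written as Tbx18(cre/+) together with Tbx2(fl/fl) and Tbx3(fl/fl). The control ureters were Tbx18(+/+) with Tbx2(fl/?) and Tbx3(fl/?), the question mark standing for an allele that the labels leave unnamed. Both groups thus carried a floxed allele of each gene, and the controls had no Cre. Effects of the deletion, of the Cre and of the changed Tbx18 allele therefore cannot be told apart. Tbx2 and Tbx3 are T-box transcription factors of the undifferentiated ureteric mesenchyme, and Tbx18, from whose locus the Cre is expressed, is active in the progenitors of that mesenchyme. Whole ureters were profiled, so epithelium, vessels and nerves are in each RNA as well. On 2 two-colour arrays, 1 female and 1 male pair of labelled knockout and control RNA were set against each other. The knockout RNA was labelled with AlexaFluor647 in the female pair and with AlexaFluor555 in the male pair, so the sex of a pair and its dyes cannot be told apart. The labels do not say how many embryos each RNA holds. The 2 pairs come from embryos of different sex. The p-values measure only the spread between these pairs, of the gene itself and, with more weight, pooled over all genes. In that spread, embryo, sex, dye and technical variation cannot be told apart.

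Among spots on the arrays, 66.9% (female) and 71.6% (male) were well above background in the labelled knockout channel, against 70.8% and 64.3% in the control channel. No spot was saturated (0 on each array). Xist and Ddx3y matched the sexes on the labels, with mean log2 intensities of 12.49 and 6.34 in the female pair and of 6.35 and 13.40 in the male pair. Of the targeted genes, Tbx3 had a mean log2 ratio of labelled knockout over control of -1.09 ± 0.10 (SD, n = 2 pairs, limma, adjusted p = 0.000902) and was lower. Tbx2 was higher, at 0.86 ± 0.12 (adjusted p = 0.00244), which goes against the label. The files do not say whether these probes lie within the floxed exons, so the ureters are called labelled knockout throughout.

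The promoters of these genes were searched for the motifs of SRF, CREB and related factors. The 250 bases before each annotated start were read from RefSeq (build GRCm38.p6) for 8 of the 10 genes, and those of Egr1 and Ier2 are not used here. Shown are the promoters of Fos, Fosb, Atf3 and Nr4a1, the 4 of these 8 that were lower in the ureters labelled knockout, and that of Dusp1, which did not pass the test and holds a full cyclic AMP response element. Each is written 5′ to 3′ on the strand of its gene. Capitals mark the full element TGACGTCA, its core TGACG on either strand, which reads CGTCA on the opposite one, and the TATA motif TATAA.
Fos, chr12:85473640-85473889, plus strand: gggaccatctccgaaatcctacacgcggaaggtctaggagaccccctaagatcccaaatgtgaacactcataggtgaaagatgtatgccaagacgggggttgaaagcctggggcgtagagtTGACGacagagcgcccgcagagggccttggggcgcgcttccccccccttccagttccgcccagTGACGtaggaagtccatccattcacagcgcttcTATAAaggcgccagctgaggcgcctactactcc
Fosb, chr7:19310046-19310295, minus strand: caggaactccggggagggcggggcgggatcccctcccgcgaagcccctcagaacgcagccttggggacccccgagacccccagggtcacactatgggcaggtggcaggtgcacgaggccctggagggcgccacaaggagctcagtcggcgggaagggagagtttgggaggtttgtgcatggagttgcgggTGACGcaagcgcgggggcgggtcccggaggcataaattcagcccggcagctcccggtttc
Atf3, chr1:191183334-191183583, minus strand: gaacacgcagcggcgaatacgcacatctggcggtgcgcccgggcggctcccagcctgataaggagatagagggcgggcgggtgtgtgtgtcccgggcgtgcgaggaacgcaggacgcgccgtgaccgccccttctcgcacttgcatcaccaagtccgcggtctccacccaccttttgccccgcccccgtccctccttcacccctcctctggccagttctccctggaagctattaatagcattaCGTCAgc
Nr4a1, chr15:101266596-101266845, plus strand: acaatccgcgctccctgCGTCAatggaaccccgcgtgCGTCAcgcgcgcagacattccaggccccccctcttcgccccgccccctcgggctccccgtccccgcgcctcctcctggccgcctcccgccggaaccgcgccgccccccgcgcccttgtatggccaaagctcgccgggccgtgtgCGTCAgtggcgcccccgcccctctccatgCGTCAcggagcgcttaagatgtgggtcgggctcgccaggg
Dusp1, chr17:26508473-26508722, minus strand: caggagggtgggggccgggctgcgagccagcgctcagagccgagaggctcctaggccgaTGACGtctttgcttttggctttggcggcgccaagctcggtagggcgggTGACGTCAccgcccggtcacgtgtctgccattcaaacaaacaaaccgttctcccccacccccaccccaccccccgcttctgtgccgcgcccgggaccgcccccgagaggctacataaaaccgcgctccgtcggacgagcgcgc

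The core TGACG was found in a window of 7 of the 8 genes, all except Jun, against 17.8% of the 32851 RefSeq promoters of the same length, on either strand. In Fos it began 129 and 66 bases before the start, in Fosb 60 and in Atf3 7. The full element, which holds the core on both strands, was found in Dusp1 alone, 143 to 136 bases before its start, against 1.55% of all promoters. The CArG box, the motif that SRF binds, was found in Egr2 alone, against 1.47% of all promoters. The EGR motif GCGNGGGCG was found in Fosb and Nr4a1 (4.7% of all promoters) and TATAA in Fos and Egr2 (22.8%). The AP-1 motif TGANTCA was found in 0 of the 8 genes, against 6.75% of all promoters. Egr2 has several annotated starts and counted if any of its windows matched, and not all of them hold the core, while the shares are of single promoters. A match describes the letters of the window, and a window without one says nothing of the factor, whose site may lie elsewhere.

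Several immediate early RNAs were lower in the ureters labelled knockout. Of the 10 genes, 5 passed the test as lower (Fosb, Atf3, Fos, Egr1 and Nr4a1), 0 passed as higher and 5 did not pass. At an unadjusted p under 0.05, limma had 9 lower and 0 higher, against 6.54% of all genes lower and 7.57% higher. Among all genes tested, 1.81% were called lower and 1.86% higher at an adjusted p under 0.05 in a limma fit of the 2 log2 ratios over all genes. The median log2 fold change was -0.52 for the 10 genes and -0.0022 for all genes tested. By pair, the median of the 10 genes was -0.73 (female pair) and -0.36 (male pair), against -0.0076 and 0.0073 for all genes. A ratio below 0 in both pairs was seen for 9 of the 10 genes, all except Egr2, against 28.1% of all genes. Fosb alone was at least 1.5-fold lower in both pairs, against 0.674% of all genes. In RNA of a whole organ, fewer cells of a type and less RNA per cell cannot be told apart.

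The Fos and Jun families form the AP-1 transcription factor, in which a Fos protein pairs with a Jun protein through leucine zippers. Fosb had the largest change of the 10 genes. Its log2 intensities were 13.68 and 13.54 in the female and male ureters labelled knockout, against 15.03 and 14.14 in the female and male controls. Both labelled knockout levels lay below both control levels, and the female control stood highest. Its log2 ratios of -1.35 (female pair) and -0.60 (male pair) averaged -0.97 ± 0.53 (SD, n = 2 pairs), which is 50.9% of the control level (adjusted p = 0.0316). Fos, the founding member of its family, had 14.37 and 14.36 in the female and male labelled knockout, against 15.36 and 14.82 in the controls. The labelled knockout levels were nearly equal, whereas the controls differed from each other. Fos had log2 ratios of -0.99 (female pair) and -0.46 (male pair), a mean of -0.72 ± 0.38 (SD, n = 2 pairs), or 60.6% of control (adjusted p = 0.0348).

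Neither Jun partner passed the test. Jun, the main activating partner of Fos, had 13.48 and 13.08 in the female and male labelled knockout, against 13.85 and 13.38 in the controls. The groups overlapped, as the female labelled knockout lay above the male control. Within pairs Jun had ratios of -0.38 and -0.29, the mean of -0.34 ± 0.062 (SD, n = 2 pairs) being close in both, and the adjusted p was 0.0559. Junb, which can restrain Jun activity, had 8.98 and 9.07 in the female and male labelled knockout, against 9.71 and 9.18 in the controls. Its difference lay almost wholly in the female pair (-0.73, against -0.11 in the male pair), and its mean of -0.42 ± 0.44 (SD, n = 2 pairs) did not pass (adjusted p = 0.234).

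Atf3, a leucine zipper factor of the ATF and CREB family that responds to many kinds of stress, had 11.52 and 11.09 in the female and male labelled knockout, against 12.55 and 11.51 in the controls. The female labelled knockout and the male control were at almost the same level, so the groups touched. The ratios of -1.04 and -0.42 averaged -0.73 ± 0.44 (SD, n = 2 pairs), which is 60.4% of control, and the adjusted p of 0.0491 lay just under the threshold, and the call was made in 4 of 13 alternatives. Of the Atf3, Fos and Fosb promoters printed above, each holds the core TGACG.

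**Figure D1:**
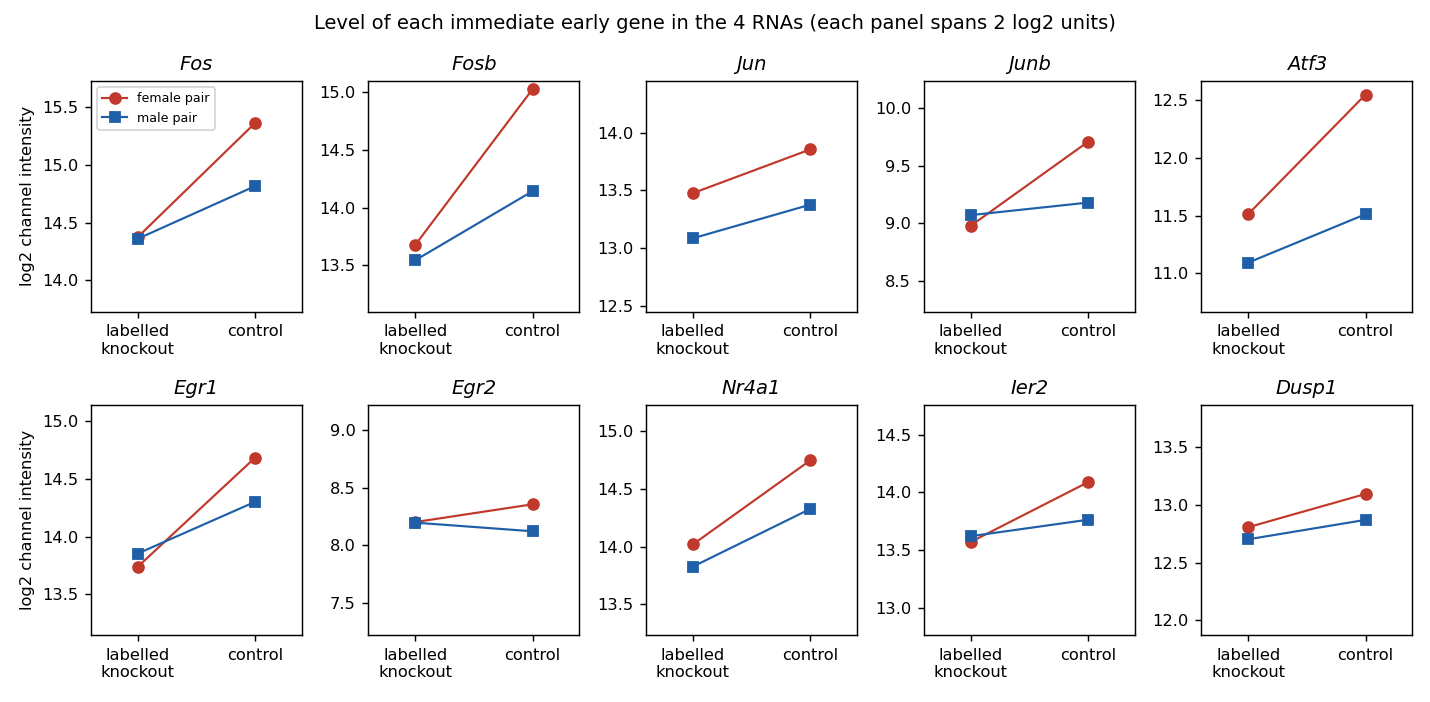
Log2 channel intensity of each of the 10 genes (vertical axis, 2 log2 units per panel) in the labelled knockout and control RNA (horizontal axis), with circles and red lines for the female pair and squares and blue lines for the male pair. The female control is the highest of the 4 points in every panel, and the lines slope up to control in all but the male pair of Egr2.

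Of the zinc finger genes of the EGR family, Egr1 was lower and Egr2 did not pass. Egr1, which is induced by growth factors and mechanical load, had log2 intensities of 13.74 and 13.85 in the female and male labelled knockout, against 14.68 and 14.30 in the controls. Both labelled knockout levels lay below both control levels. The ratios were -0.95 (female pair) and -0.45 (male pair), with a mean of -0.70 ± 0.35 (SD, n = 2 pairs), or 61.7% of control (adjusted p = 0.0331). Egr2, known for its roles in hindbrain patterning and myelination, had 8.20 and 8.20 in the labelled knockout ureters, against 8.36 and 8.12 in the female and male controls. It was the 1 gene of the 10 with opposite signs in the 2 pairs, at -0.15 (female) and 0.075 (male), a pattern seen in 44.2% of all genes tested. The mean of -0.040 ± 0.16 (SD, n = 2 pairs) did not pass (adjusted p = 0.950). Its 4 spots ranged from -0.34 to 0.033 in the female pair and from -0.074 to 0.19 in the male pair, so the spread between spots was as wide as the values.

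Nr4a1, an orphan nuclear receptor induced by calcium and cyclic AMP, had the lowest adjusted p of the 10 genes. Its log2 intensities were 14.02 and 13.83 in the female and male labelled knockout, against 14.75 and 14.33 in the controls, with no overlap between the groups. The ratios of -0.73 and -0.50 averaged -0.61 ± 0.16 (SD, n = 2 pairs), or 65.3% of control (adjusted p = 0.0122).

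Ier2, a nuclear protein of the early growth response, and Dusp1, the phosphatase that switches MAP kinases off again, had ratios below 0 in both pairs and did not pass. Ier2 had 13.57 and 13.62 in the female and male labelled knockout, against 14.09 and 13.76 in the controls. Its mean log2 ratio was -0.33 ± 0.27 (SD, n = 2 pairs, adjusted p = 0.181). Dusp1 had 12.81 and 12.70 in the female and male labelled knockout, against 13.09 and 12.87 in the controls. Its mean was -0.23 ± 0.085 (SD, n = 2 pairs, adjusted p = 0.183), and neither gene's groups overlapped. For 9 of the 10 genes, all 4 spots were below 0 in both pairs, so the direction did not rest on single spots. Over all 10 genes, both labelled knockout levels lay below both control levels in 7, the exceptions being Jun, Atf3 and Egr2, against 17.7% of all genes tested.

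**Figure D2:**
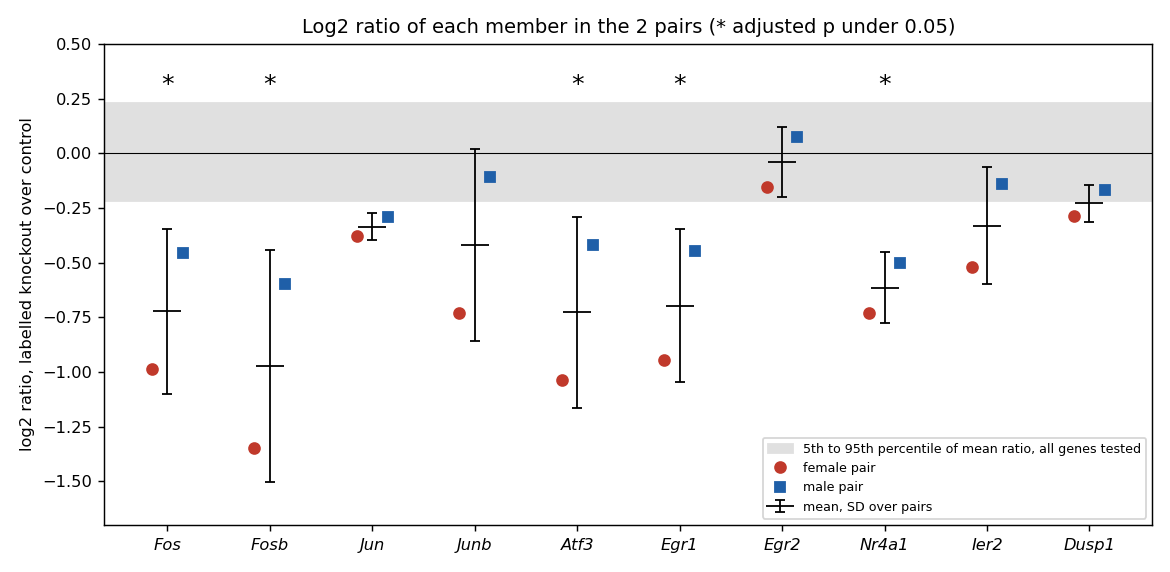
Log2 ratio of labelled knockout over control for each of the 10 genes, with circles for the female pair, squares for the male pair, and bars for the mean and SD over the 2 pairs. The grey band spans the 5th to 95th percentile of the mean ratio of all genes tested, and asterisks mark the 5 genes with an adjusted p under 0.05 (Fos, Fosb, Atf3, Egr1 and Nr4a1).

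The size of the difference was not the same in the 2 pairs. All 10 genes had the more negative ratio in the female pair. The female minus male difference ranged from -0.75 for Fosb to -0.088 for Jun, with -0.62 for both Atf3 and Junb, -0.53 for Fos and -0.50 for Egr1. Over all genes tested this difference had a median of -0.017, and its 5th and 95th percentiles were -0.27 and 0.30. Junb, Ier2, Fos, Fosb, Atf3 and Egr1 lay below that range, and Jun, Dusp1, Egr2 and Nr4a1 within it. With 1 pair per sex the difference was not tested.

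The levels of the single RNAs rest on the same ratios and on the mean intensity of each array. The female control had the highest level of the 4 RNAs for all 10 genes, against 28.2% of all genes. Between the controls, the female minus male difference had a median of 0.45 and ranged from 0.22 for Dusp1 to 1.04 for Atf3. It was above 0 in 10 of 10 genes, against 53.1% of all genes. Between the labelled knockout RNAs the same difference had a median of 0.059 and a range of -0.12 (Egr1) to 0.42 (Atf3), and it was above 0 in 7 of 10. The difference between controls was the larger for each of the 10 genes, as it was for 50.8% of all genes. This is no separate result. Given the more negative female ratios above, it holds wherever the mean intensity of a gene was higher on the female array. The 95th percentile of all genes was 0.24 between controls and 0.25 between labelled knockout RNAs. Between the labelled knockout RNAs, Jun (0.39) and Atf3 (0.42) exceeded it. The difference between controls exceeded it for all but Egr2 (0.23) and Dusp1 (0.22). Under 3 other ways of scaling the levels between arrays, chosen after seeing the data, this difference stayed above 0 in 10 of 10 genes, with medians of 0.42 to 0.51. The matching shares of all genes were 47.6% to 68.8%. The largest values, 0.51 and 68.8%, came without scaling between arrays, where the median of all genes was 0.065.

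RNAs that carried the same dye could be set against each other only across the sexes. For these comparisons no share of all genes was counted. In AlexaFluor555, the male labelled knockout was below the female control for 10 of 10 genes, with a median difference of -0.80. In AlexaFluor647, the female labelled knockout was below the male control for 7 of 10 genes, with a median of -0.20. The exceptions were Jun (0.10), Egr2 (0.080) and Atf3 (0.0011). Egr1 and Fosb had the largest of the second kind of difference, at -0.56 and -0.47. How far sex, dye or the single RNA set these differences was not tested.

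**Figure D3:**
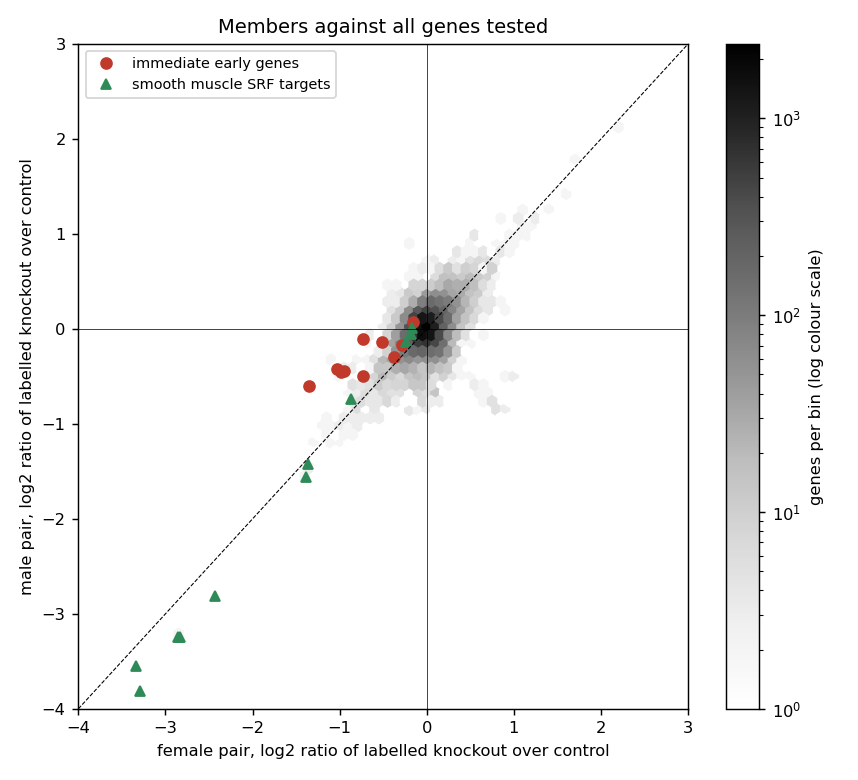
Log2 ratio of labelled knockout over control in the female pair (horizontal axis) against the male pair (vertical axis) for all genes tested, as hexagonal bins shaded by the number of genes on a log colour scale. The 10 immediate early genes (circles) lie above the dashed line of equality, with the more negative ratio in the female pair, while the most strongly reduced smooth muscle SRF targets (triangles) lie below it.

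The remainder of the immediate early programme was examined through 2 further lists. Of 15 other immediate early transcription factors 11 were tested, and 0 were higher, 0 lower and 11 did not pass, with a median of -0.095 (female pair -0.18, male pair -0.0087). At an unadjusted p under 0.05, limma had 3 of them lower and 0 higher. The largest differences were those of Csrnp1, a nuclear factor induced by AXIN1, at -0.30 ± 0.10 (SD, n = 2 pairs, adjusted p = 0.0928), and the Fos family member Fosl2, at -0.23 ± 0.033 (adjusted p = 0.156). Of 39 immediate early effectors 37 were tested and none passed with its brightest probe (0 higher, 0 lower), with a median of -0.046. At an unadjusted p under 0.05, 5 were lower and 2 higher, and 1 was called lower under 6 of the alternatives. Socs3, an inhibitor of cytokine receptors, was at -0.47 ± 0.35 (SD, n = 2 pairs, adjusted p = 0.117), with ratios of -0.71 (female pair) and -0.22 (male pair). Zfp36, which destabilises short-lived RNAs, was at -0.34 ± 0.041 (adjusted p = 0.0524). Tiparp is outside the rule for other named genes and was added with its values known, for the gap between its 2 probes. Its brightest probe was at -0.26 (adjusted p = 0.109). The other was at -0.51 (female pair -0.44, male pair -0.59, limma, adjusted p over probes in place of genes = 0.0134). The medians of both lists were closer to 0 than that of the 10 genes.

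The proteins that pair with AP-1 members or hold EGR proteins in check showed 0 calls in either direction among 13 tested of 15, with a median of -0.0033. Unadjusted p-values under 0.05 were found for 1 gene in each direction. The leucine zipper factor Batf, which pairs with Jun proteins, had the largest value, at -0.33 ± 0.16 (SD, n = 2 pairs, adjusted p = 0.0992). All 23 MAP kinase and CREB pathway genes were tested and none passed (0 in each direction), with a median of -0.0024. At an unadjusted p under 0.05, 1 was higher and 0 were lower. The RSK kinase Rps6ka3 was at 0.22 (adjusted p = 0.176) with the brightest of its 4 probes, while its other probes lay between -0.037 and 0.046. The p38 kinase Mapk14 was at -0.11 (adjusted p = 0.570). These are RNA levels, and the activity of a kinase was not measured. Heat shock genes, another stress response, had 0 calls in either direction among 15 tested of 16 and a median of -0.034 (1 lower and 0 higher at an unadjusted p under 0.05), with Hspb8 at -0.27 ± 0.11 (SD, n = 2 pairs, adjusted p = 0.127) and Hspb1 at -0.13.

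SRF and its cofactors differed among themselves. Of 7 genes 1 passed, Myocd, the coactivator restricted to smooth and heart muscle, which fell by 2.53 ± 0.11 on the log2 scale (SD, n = 2 pairs, adjusted p = 8.92e-05). Srf itself, chosen for naming after its value was seen, was at -0.36 and did not pass (adjusted p = 0.0511), and its other probe was at -0.18, while 2 genes of this list were called lower under 4 of the alternatives. The median of the 7 genes was -0.029. Smooth muscle SRF targets were far lower: 8 of 11 tested were lower, 0 were higher and 3 did not pass, with a median of -1.47. Actg2, the smooth muscle gamma actin, was at -3.55 ± 0.36 (SD, n = 2 pairs), the myosin heavy chain Myh11 at -3.44 ± 0.15, calponin Cnn1 at -3.05 ± 0.27 and the smooth muscle alpha actin Acta2 at -3.04 ± 0.29. This median was -1.39 (female pair) and -1.56 (male pair), the opposite order to that of the 10 immediate early genes. Of 10 widely expressed SRF targets 3 were lower, 0 were higher and 7 did not pass, with a median of -0.093. The LIM protein Fhl2 was at -0.86 ± 0.10 (SD, n = 2 pairs), vinculin (Vcl) at -0.42 ± 0.12 and filamin (Flna) at -0.39 ± 0.0064. The other probe of Vcl was at -0.32 and did not pass (limma, adjusted p over probes in place of genes = 0.123). With median centring, processed signals or the deposited values, 1 of these 10 was called lower, Fhl2, and the calls of Vcl and Flna were lost.

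**Figure D4:**
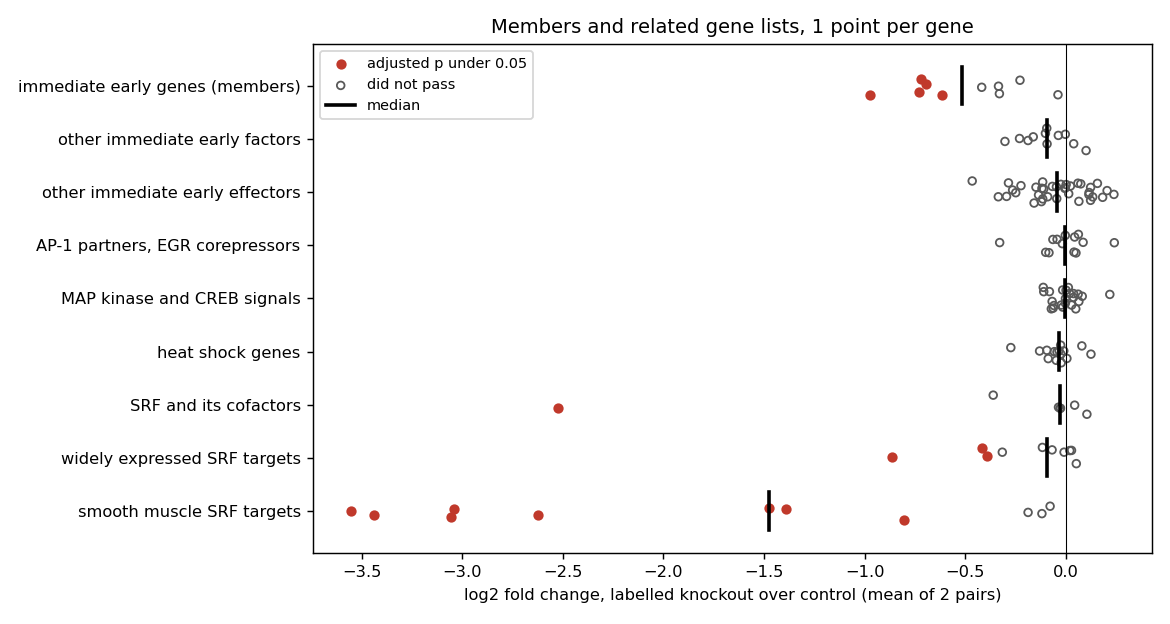
Mean log2 fold change of labelled knockout over control for each gene of the immediate early list and of 8 related lists, with filled points for an adjusted p under 0.05, open points for genes that did not pass, and black bars for list medians. The immediate early list has a median of -0.52, the smooth muscle SRF targets one of -1.47, and the other lists have medians between -0.095 and -0.0024.

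Markers of the cell types in the ureter were compared in the same RNAs. The summed smooth muscle marker level was 17.71 and 17.71 on the log2 scale in the female and male labelled knockout, against 18.85 and 19.00 in the controls. Of the 12 markers 11 were tested and 8 of them were lower, while Lmod1 did not pass the filter on dim probes. Of 6 mesenchyme markers, 2 were lower (Foxf1 at -0.49 and Pdgfra at -0.39) and 1 was higher (Osr1 at 0.43). The other probe of Foxf1 was at -0.38 and did not pass (limma, adjusted p over probes in place of genes = 0.0896). Summed mesenchyme levels were 17.64 and 17.68 in the labelled knockout, against 17.86 and 17.81 in the controls. Of 8 glial and neuronal markers 3 were higher, Fabp7 at 0.71, Prph at 0.69 and Dbh at 0.62, and 0 were lower. Their summed levels were 15.66 and 15.57 in the labelled knockout, against 15.59 and 15.59 in the controls, and thus overlapped. None of the markers tested for endothelium (8), leukocytes (8), urothelium (8) or erythroid cells (4 of 5) passed in either direction. At an unadjusted p under 0.05, 2 endothelial, 4 leukocyte, 1 urothelial and 3 erythroid markers were higher and 2 urothelial markers lower, against 7.57% of all genes higher and 6.54% lower. Under other processing, up to 2 leukocyte, 1 urothelial and 1 erythroid markers were called higher, whereas the mesenchyme calls were lost with median centring, processed signals and the deposited values.

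Their medians were 0.13, 0.16, -0.073 and 0.32 in that order of cell types. Summed endothelial levels were 16.80 and 17.05 in the female and male labelled knockout, against 16.73 and 16.72 in the controls. Leukocyte markers summed to 14.95 and 14.99 in the labelled knockout, against 14.81 and 14.82 in the controls. Those of the urothelium summed to 16.59 and 16.67 in the labelled knockout, against 16.70 and 16.71 in the controls. Erythroid markers summed to 18.35 and 18.13 in the labelled knockout, against 17.82 and 18.04 in the controls. Each marker tested was above background in both RNAs of at least 1 group. The part of cell composition in the immediate early values was not tested.

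Genes outside these lists were ranked by how near their ratios in the 2 pairs lay to the median of the immediate early genes. Only genes with standard symbols were ranked, without unnamed probes or provisional names. The nearest 5 were Abcb9, Ptn, Col4a6, Slc5a7 and Ctse. Their distances were 0.042, 0.068, 0.094, 0.11 and 0.12 log2 units over the 2 pairs. Abcb9, a peptide transporter of lysosomes, was at -0.52 ± 0.29 (SD, n = 2 pairs, adjusted p = 0.0574). Ptn, the secreted growth factor pleiotrophin, was at -0.58 ± 0.31 (adjusted p = 0.0463). Col4a6, a basement membrane collagen chain, was at -0.48 ± 0.24 (adjusted p = 0.0518), Slc5a7, the choline transporter of cholinergic neurons, at -0.56 ± 0.16 (adjusted p = 0.0167), and Ctse, a cathepsin, at -0.47 ± 0.19 (adjusted p = 0.0393).

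The calls changed with the processing, while the mean over the 2 pairs changed little. With arrays centred on their median in place of loess, 0 of the 10 genes passed, and likewise 0 with the processed signals and 0 with the deposited value table, whereas 6 passed without background subtraction, with Jun added. With robust eBayes 1 passed, Nr4a1. Over the 13 alternatives that kept both arrays, the median of the 10 genes lay between -0.49 and -0.55, while the female array alone gave -0.73 and the male array alone -0.36. The medians by pair moved more. They were -0.72 (female) and -0.26 (male) with median centring, and -0.93 and -0.038 when background subtraction was also left out. In that last setting 5 of the 10 genes were below 0 in both pairs. With 2 pairs, the smallest p that an exact two-sided sign test of 1 gene allows is 0.5, so each call rests on the spread pooled over genes. In the deposited value table, which gives a signed fold per array, Fosb had -2.67 (female pair) and -1.52 (male pair), Fos -1.91 and -1.32, and Egr2 -1.09 and 1.12.

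**Figure D5:**
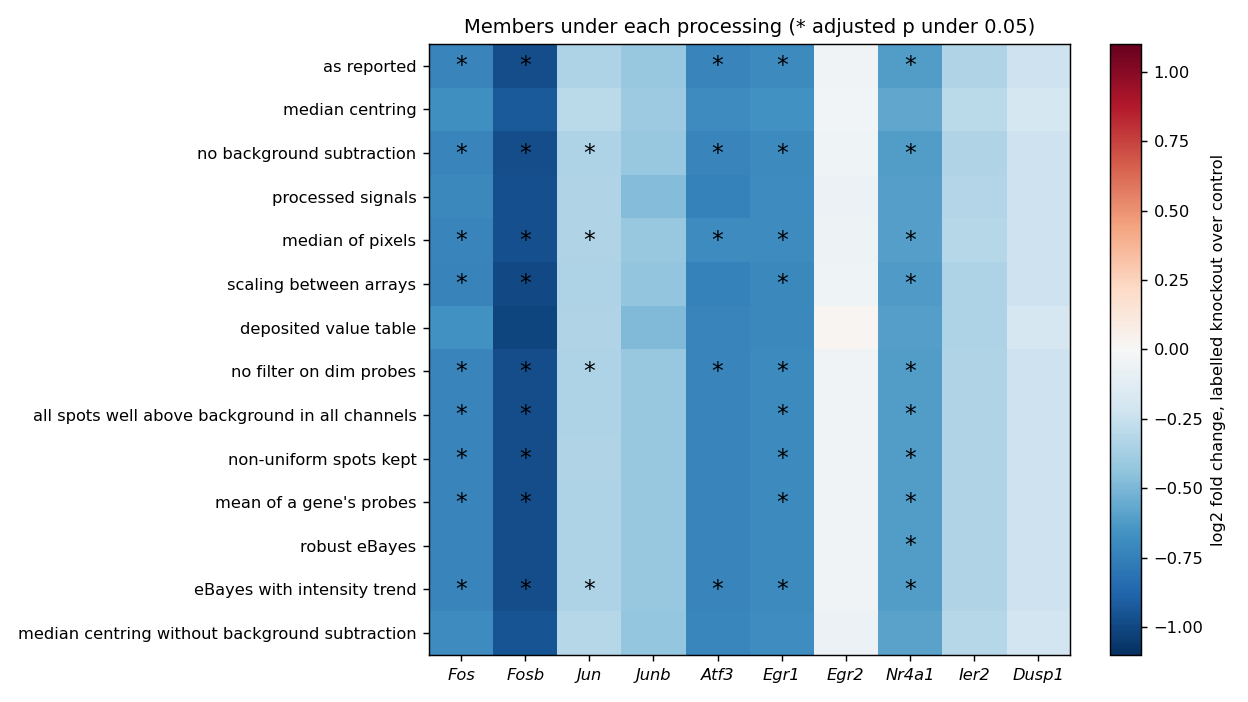
Log2 fold change of labelled knockout over control, as colour, for each of the 10 genes (columns) as reported and under 13 other ways of processing (rows). Asterisks mark an adjusted p under 0.05; colours change little down each column, while the asterisks come and go, and none stands in the rows of median centring, processed signals or the deposited values.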

How the data were processed

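RNA of 2 labelled knockout and 2 control ureter samples was measured on 2 two-colour Agilent arrays. The scanner software was Agilent Feature Extraction 10.7.3.1, according to the submitters' processing notes. The deposited scanner files give spot and local background intensity for both channels before normalization, next to signals that the software had processed, per the file headers. A further deposited table has a signed fold for every probe on either array, used as a score, and no source says how the authors made it. Compared with labelled knockout over control on the log2 scale, it correlated at 0.965 (female) and 0.970 (male) over 24302 probes. Its median was 1 on both arrays and 33.7% (female) and 34.1% (male) of its entries equalled 1, while its floor and centring remain unknown.

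Background was corrected with normexp (offset 50) and each array was normalized by loess, control spots having weight 0. Non-uniform spots (186 female, 223 male) were dropped, and a probe's 4 spots were averaged (median SD between spots 0.0693 and 0.0630 log2 units). A probe was kept if more than 0.5 of its spots were well above background in both labelled knockout channels or in both control channels, which held for 25934 of 39396 probes. RefSeq accessions named 28303 probes, and the brightest probe stood for a gene. Probes left unnamed were grouped by the accession that the array gives and counted as genes too. The shares of all genes include them. Ratios were tested against 0 with limma 3.58.1 in R 4.3.3 (lmFit, eBayes, 1 residual degree of freedom, prior 5.21) and adjusted by Benjamini-Hochberg over 20629 genes. The procedure was run on simulated data, with spreads drawn from its own fitted variance model. That run cannot show whether the calls in these data hold. Channel levels were scaled with Aquantile. The number of arrays limits the precision.

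The 10 genes, the lists and the rule for other named genes were chosen with earlier results of these data known. That rule took Tbx2, Tbx3 and the called genes of each list up to 4 (with none called, the 2 of largest mean change). It also took the 5 nearest genes with standard symbols. The value of 1 gene that it takes was left out. Alternatives were other background corrections, normalizations, filters, summaries of probes, variance models and thresholds, and each array alone.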

Additional observations from a re-analysis of the deposited data

Results flagged for a closer look

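Opposite signs in the 2 pairs were common among all genes (44.2%), and those of 1 immediate early gene, 1 other named gene and 3 list medians are given here. As each sex had a single pair, with the dyes exchanged, none of these differences was tested. Among the immediate early genes this was so for Egr2, with a female minus male difference of -0.23 (female pair -0.15, male pair 0.075). Egfl7, a secreted protein of endothelial cells, had the widest gap, at -1.06 (female pair -0.20, male pair 0.85), and the other endothelial markers tested were above 0 in both pairs. The median of the AP-1 partners and EGR corepressors differed by -0.058 (-0.040 and 0.018), and that of the MAP kinase and CREB genes by -0.052 (-0.033 and 0.019), both small beside the values of single genes. The median of the urothelium markers differed by 0.19, with 0.024 (female pair) and -0.16 (male pair).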

How the results depend on the processing

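Over 13 alternatives, the direction of the mean was the same for 9 of the 10 immediate early genes, and Egr2 alone turned, to 0.021 with the deposited value table. Called lower were 5 genes as reported, against 0 with median centring, 0 with processed signals, 0 with the deposited value table and 1 (Nr4a1) with robust eBayes. Median centring without background subtraction, chosen after seeing the data, also gave 0, with 5 genes below 0 in both pairs and medians of -0.93 (female pair) and -0.038 (male pair). Each of Fos, Fosb and Egr1 was called in 8 of the 13 alternatives, Nr4a1 in 9, Atf3 and Jun in 4. The adjusted p ranged from 0.00944 to 0.785 for Fos, from 0.00745 to 0.166 for Fosb, from 0.0158 to 0.687 for Atf3, from 0.00906 to 0.871 for Egr1 and from 0.0030 to 1.00 for Nr4a1. The cause was not tested. Of all genes, 758 were called (374 lower, 384 higher) as reported, 236 (126, 110) with median centring, 463 (214, 249) with processed signals, 285 (143, 142) with the deposited value table and 126 (70, 56) with median centring without background subtraction. At an adjusted p under 0.1, 1146 were called, 605 of them higher. A single array gives a value without a test, so counts of calls were not run without a replicate. Every fit used the ratios within arrays and so compared the RNAs of a pair.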
